A study of Mus musculus with 16 samples.

Results

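The enzymes that make and recycle NAD+ were followed in mouse cerebellum through 10 genes, *Nmrk1*, *Nampt*, *Naprt*, *Qprt*, *Nmnat1*, *Nmnat2*, *Nmnat3*, *Nadsyn1*, *Nadk* and *Nnmt*. The members are all array probes, other than control spots, whose accession belongs to one of these genes, which gave 14 of 56605 distinct probes and 10 of the 16737 genes measured. All 14 probes were detected on every array, except the dimmer *Nnmt* probe, which was well above background on 3 of the 4 Atm-/- NR arrays. Of the 14 probes, 13 were kept for the model among 37253 kept probes, and the brighter *Nmnat2* probe was not, because its spot on WT veh 4 carried an outlier mark.

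RNA came from the cerebellar cortex of 16 mice of the strain B6;129S4-Atmtm1Bal/J, in which Atm-/- animals are homozygous for a germline mutation of *Atm*, the gene of a DNA damage kinase, and WT animals are their littermates. From 6 weeks of age and for 2 months, the mice drank either plain water (veh) or nicotinamide riboside (NR) dissolved in it at 3.5 mg/ml, which is 12 mM, and all are labeled male and 3.5 months old. Each of the 4 groups (WT mice and Atm-/- mice, each with veh or with NR) has 4 arrays. The comparisons ask whether loss of Atm, the supply of an NAD+ precursor, or both, came with other levels of the transcripts for these enzymes of NAD+ metabolism.

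NAD+ is built along several routes that meet at a common step. NR is phosphorylated to nicotinamide mononucleotide by NR kinases, nicotinamide is turned into the same nucleotide by NAMPT, and nicotinic acid and the tryptophan product quinolinic acid are turned into nicotinic acid mononucleotide by NAPRT and QPRT. The NMNAT enzymes then adenylylate either nucleotide, NADSYN1 amidates the acid form to NAD+, NADK phosphorylates NAD+ to NADP+, and NNMT methylates nicotinamide and so takes it out of the cycle. In neurons, NMNAT2 is the short-lived isoform that is carried into axons and whose loss starts axon degeneration.

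The WT arrays share slide 1 and the Atm-/- arrays share slide 2. In every comparison of genotypes the slide therefore differs too, and the effects of each cannot be told apart. Within each slide, veh arrays lie in row 1 and NR arrays in row 2, so treatment and row cannot be told apart either. *Xist* was well above background on 4 arrays although all mice are labeled male, on 2 of WT NR, 1 of Atm-/- veh and 1 of Atm-/- NR. The number of probes well above background ran from 39134 to 41905 in Atm-/- veh and from 34945 to 37817 in Atm-/- NR, and the part of these features in the results was not tested. As a check of the labels, 1 *Atm* probe was lower in Atm-/- veh than in WT veh by −0.87 log2 units (limma, adjusted p = 0.000317), and another probe of the gene differed by −0.35 (limma, adjusted p = 0.221), with no overlap between the groups for either. In Atm-/- NR against WT NR the former probe differed by −0.76 without overlap (limma, adjusted p = 0.00135) and the latter by −0.12 with overlap (limma, adjusted p = 1). All 7 listed Purkinje cell markers and all 7 granule cell markers were measured. So were all 6 listed markers of meninges and fibroblasts and 4 of 5 for forebrain, so being measured does not check the labeled tissue. WT veh 4 stood apart in markers of neighboring tissue, given with *Nnmt*.

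The regions before the transcription starts of *Nmnat2*, the gene with the probe that passed the test, and of *Nmrk1*, the kinase for the compound the mice drank, are shown for context (RefSeq, build GRCm38.p6, 250 bases upstream of the start, 5′ to 3′ on the strand of the gene). Capitals mark matches to TGACG, the half-site of the cAMP response element, or to GGGCGG, the GC box, on either strand.
Nmnat2 upstream, chr1:152954851-152955100, plus strand: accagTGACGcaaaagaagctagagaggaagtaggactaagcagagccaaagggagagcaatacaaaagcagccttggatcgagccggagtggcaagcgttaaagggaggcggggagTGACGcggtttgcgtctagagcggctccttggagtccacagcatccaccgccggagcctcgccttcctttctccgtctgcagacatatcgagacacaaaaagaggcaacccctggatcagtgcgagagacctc
Nmrk1 upstream, chr19:18631766-18632015, plus strand: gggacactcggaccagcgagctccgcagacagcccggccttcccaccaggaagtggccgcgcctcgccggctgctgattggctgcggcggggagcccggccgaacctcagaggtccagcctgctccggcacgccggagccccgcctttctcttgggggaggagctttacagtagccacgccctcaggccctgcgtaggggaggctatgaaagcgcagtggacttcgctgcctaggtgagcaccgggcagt
The *Nmnat2* window holds 2 matches to TGACG and none to GGGCGG, and the *Nmrk1* window holds neither. Of 32851 promoter windows of this length, 17.8% hold TGACG and 32.7% hold GGGCGG. GC content was 56.4% in the *Nmnat2* window and 69.2% in that of *Nmrk1*, against a median of 52.4% over all windows. These promoters were not measured here, and windows were at hand for 8 of the 10 genes.

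The kinases and transferases that take in the precursors came first in the order of the pathway. *Nmrk1*, which phosphorylates NR, had log2 signals of 8.26, 8.22, 8.14 and 7.56 in WT veh and of 8.12, 7.87, 7.97 and 7.96 in WT NR. Its values were 8.16, 8.15, 8.20 and 8.44 in Atm-/- veh and 7.91, 7.98, 7.81 and 7.50 in Atm-/- NR. Every Atm-/- NR array was therefore below every Atm-/- veh array, while the WT groups overlapped. The difference between Atm-/- NR and Atm-/- veh was −0.44 (95% interval −0.75 to −0.12, 0.739-fold) and did not pass the test (limma, adjusted p = 0.0782). It passed in 3 of 26 alternatives, with scaling to the 75th percentile (−0.51, limma, adjusted p = 0.0271), with the normexp background (−0.39, limma, adjusted p = 0.0338) and without WT veh 4 (−0.44, limma, adjusted p = 0.0209). WT veh 4 is in neither group of this comparison, and leaving it out did not change the difference itself. Over the alternatives the adjusted p of limma reached 0.26. In the WT mice, NR came with a difference of −0.06 (95% interval −0.38 to 0.26), and the difference between the NR effects of the genotypes was −0.37 ± 0.209 (SE; limma, adjusted p = 0.839).

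*Nampt*, the enzyme that limits the rate of salvage from nicotinamide, stayed within a narrow band. Its log2 signals were 10.56, 10.70, 10.85 and 10.69 in WT veh, 10.48, 10.43, 10.76 and 10.63 in WT NR, 10.58, 10.58, 10.91 and 10.72 in Atm-/- veh and 10.60, 10.48, 10.45 and 10.53 in Atm-/- NR. All groups overlapped. The Atm-/- veh and WT veh means were both 10.70 (SD 0.154 and 0.119, n = 4), with a 95% interval of the difference of −0.21 to 0.20. After NR, the Atm-/- mean was 10.52 ± 0.0672 (SD, n = 4), a difference of −0.18 from Atm-/- veh (95% interval −0.39 to 0.02; limma, adjusted p = 0.237).

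*Naprt*, which starts the route from nicotinic acid, and *Qprt*, which closes the route from tryptophan, passed no test. *Naprt* had group means from 11.10 in WT NR to 11.22 in WT veh, and its 4 pairwise differences lay between −0.12 and 0.08. *Qprt* spread more, with 8.12, 8.06, 7.90 and 7.89 in WT veh, 7.57, 7.69, 7.53 and 8.11 in WT NR, 7.78, 8.14, 7.84 and 8.02 in Atm-/- veh and 7.98, 7.75, 8.51 and 8.40 in Atm-/- NR. In WT NR 3 of the 4 arrays were below all other arrays, and the fourth was among the high ones. The group difference that was largest for *Qprt*, Atm-/- NR against WT NR, was 0.44 (95% interval 0.07 to 0.80), with overlapping groups (limma, adjusted p = 0.886).

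The NMNAT enzymes, which form the dinucleotide, hold the only member probe that passed the test in any comparison. On the dimmer *Nmnat2* probe, Atm-/- veh had log2 signals of 11.17, 10.96, 10.96 and 11.07, and Atm-/- NR had 10.59, 10.65, 10.63 and 10.58. WT veh had 10.61, 10.69, 10.60 and 10.45, and WT NR had 10.77, 10.19, 10.41 and 10.42. The 4 Atm-/- veh arrays were thus the highest of all 16, and the Atm-/- NR arrays lay within the range of the WT arrays. This probe fell by 0.43 in Atm-/- NR against Atm-/- veh (95% interval −0.65 to −0.20, 0.743-fold; limma, adjusted p = 0.0249).

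In Atm-/- veh against WT veh the same probe was 0.45 higher without overlap (95% interval 0.23 to 0.68), a difference that did not pass the test over all probes (limma, adjusted p = 0.163). Both comparisons rest on the same 4 Atm-/- veh arrays, so they are not separate evidence. Atm-/- NR and WT NR differed by 0.16 (95% interval −0.06 to 0.39; limma, adjusted p = 1), and the difference between the NR effects of the genotypes was −0.29 ± 0.148 (SE; limma, adjusted p = 0.839). The call for the NR difference in Atm-/- mice was lost on leaving out array 1 (−0.38, limma, adjusted p = 0.0815) or 4 (−0.42, adjusted p = 0.0638) of the veh group, or array 2 (−0.44, adjusted p = 0.0538), 3 (−0.43, adjusted p = 0.065) or 4 (−0.42, adjusted p = 0.0553) of the NR group, and without the 4 arrays with *Xist* signal (−0.44, limma, adjusted p = 0.0567). Of the cell type markers in this comparison, 1 of 7 for Purkinje cells was called (*Car8*, 1.10, limma, adjusted p = 0.0417), with a list median of −0.05, and 1 of 4 for forebrain (*Ppp1r1b*, −0.58, limma, adjusted p = 0.0124), with a median of −0.14. *Ppp1r1b* was also 0.33 higher in Atm-/- veh than in WT veh, without overlap (limma, adjusted p = 0.236). Among astrocyte and Bergmann glia markers 0 of 7 were called, with a median of 0.03, and 3 had no overlap between Atm-/- NR and Atm-/- veh (*Gfap*, −0.75, *Aqp4*, 0.52, and *S100b*, 0.28). Over all probes in Atm-/- NR against Atm-/- veh, 9.04% were called and 20.2% had groups without overlap. None was called for granule cells (7, median 0.02), oligodendrocytes (6, −0.09), microglia (5, 0.18), endothelium (4, −0.23), meninges and fibroblasts (6, 0.04), choroid plexus (4, 0.03) or blood (2, −0.32). The part of these markers in the *Nmnat2* value was not tested.

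The brighter *Nmnat2* probe, which carries the same transcript accession, went the other way. Its log2 signals were 14.54, 14.63, 14.60 and 14.50 in Atm-/- veh and 14.79, 14.69, 14.79 and 14.77 in Atm-/- NR, so that every NR array was above every veh array. WT veh had 14.71, 14.58 and 14.57 on its 3 usable arrays, and WT NR had 14.72, 14.62, 14.68 and 14.49. In a model that allows a missing array, the difference between Atm-/- NR and Atm-/- veh was 0.19 (95% interval 0.04 to 0.34; limma, adjusted p = 0.105), and it passed the test with scaling to the 75th percentile (0.27, limma, adjusted p = 0.0382). Atm-/- veh and WT veh differed by −0.05 on this probe (95% interval −0.21 to 0.11; limma, adjusted p = 0.792), where the dimmer probe differed by 0.45.

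Measured within each array, the dimmer *Nmnat2* probe minus the brighter one was −3.37, −3.66, −3.64 and −3.43 log2 units in Atm-/- veh and −4.20, −4.04, −4.15 and −4.19 in Atm-/- NR. The mean of this distance differed by −0.62 between the groups, without overlap, and the exact permutation test gave the smallest p that 4 against 4 arrays allow (two-sided, p = 0.0286). Because the probes went opposite ways without overlap, that p was fixed by the values given above and is not separate evidence. The distance was not among the planned results. Atm-/- veh against WT veh, with 3 WT veh arrays, differed by 0.45 with the same exact permutation p, and rests on the same Atm-/- veh arrays. The distance was also compared for the other 3 genes with a pair of probes and in the other comparisons, 16 tests in all, and the exact permutation p adjusted over these was 0.229 for both. The distances of the *Nadsyn1* and *Nadk* pairs differed by at most 0.08 in all 4 comparisons, while that of the *Nnmt* pair differed by 0.72 in WT NR against WT veh (exact permutation p = 0.229), by 0.44 in Atm-/- veh against WT veh and by 0.35 in Atm-/- NR against Atm-/- veh. A single direction for *Nmnat2* transcripts was therefore not measured, and the place of either probe in the transcript is not given in the sources used here.

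**Figure D1:**
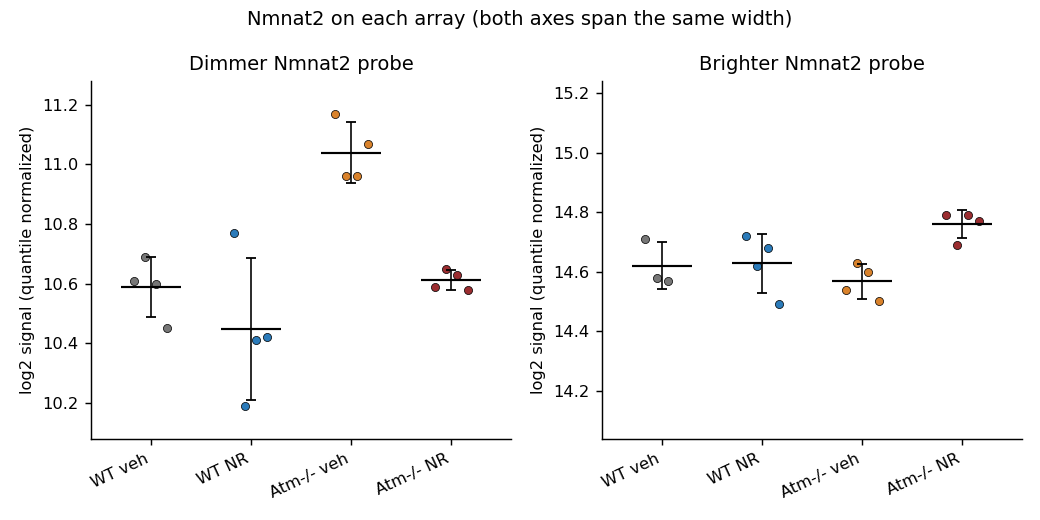
Log2 signal of both *Nmnat2* probes on each array, with points for arrays, horizontal lines for group means and bars for the SD (n = 4, and n = 3 for the brighter probe in WT veh). On the dimmer probe the Atm-/- veh arrays sit above all others, with a mean of 11.04 against 10.61 in Atm-/- NR, while on the brighter probe Atm-/- NR is above Atm-/- veh (14.76 against 14.57).

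*Nmnat1*, the nuclear isoform, had group means between 10.02 in WT veh and 10.16 in Atm-/- NR, with differences from 0.03 to 0.12. Its lowest value of the 16, 9.69, was on WT veh 4. *Nmnat3*, the mitochondrial isoform, was wide in every group. Its values ran from 7.93 to 9.13 in WT veh, from 8.12 to 9.15 in WT NR, from 8.16 to 9.03 in Atm-/- veh and from 8.27 to 9.14 in Atm-/- NR. Its NR difference in Atm-/- mice was 0.25, with a 95% interval of −0.40 to 0.91. *Nmnat3* lies on chromosome 9 with *Atm*, but not within 10 Mb of it.

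*Nadsyn1*, which amidates the acid dinucleotide to NAD+, gave similar values on both of its probes. The brighter probe had group means of 10.74 and 10.93 in WT mice without and with NR and of 10.80 and 10.92 in Atm-/- mice, and the dimmer probe had 10.53 and 10.66, and 10.54 and 10.71. Both probes had their lowest value on WT veh 4 (10.39 and 10.26), the array that stood apart in markers of neighboring tissue. Such extremes were not particular to that array. Of the 13 kept member probes, 5 had their highest or lowest value of the 16 on WT veh 4, and 5 on WT NR 2. The part of tissue in these extremes was not tested. The Atm-/- NR arrays were close to each other on both probes (SD 0.0292 and 0.0315, n = 4), and no difference passed the test. *Nadk*, which makes NADP+, was the least variable member. Its brighter probe ran from 13.47 to 13.72 and its dimmer probe from 10.37 to 10.62 over all 16 arrays. The brighter probe was above WT NR on every Atm-/- NR array, but by only 0.09 (95% interval −0.06 to 0.23; limma, adjusted p = 1).

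**Figure D2:**
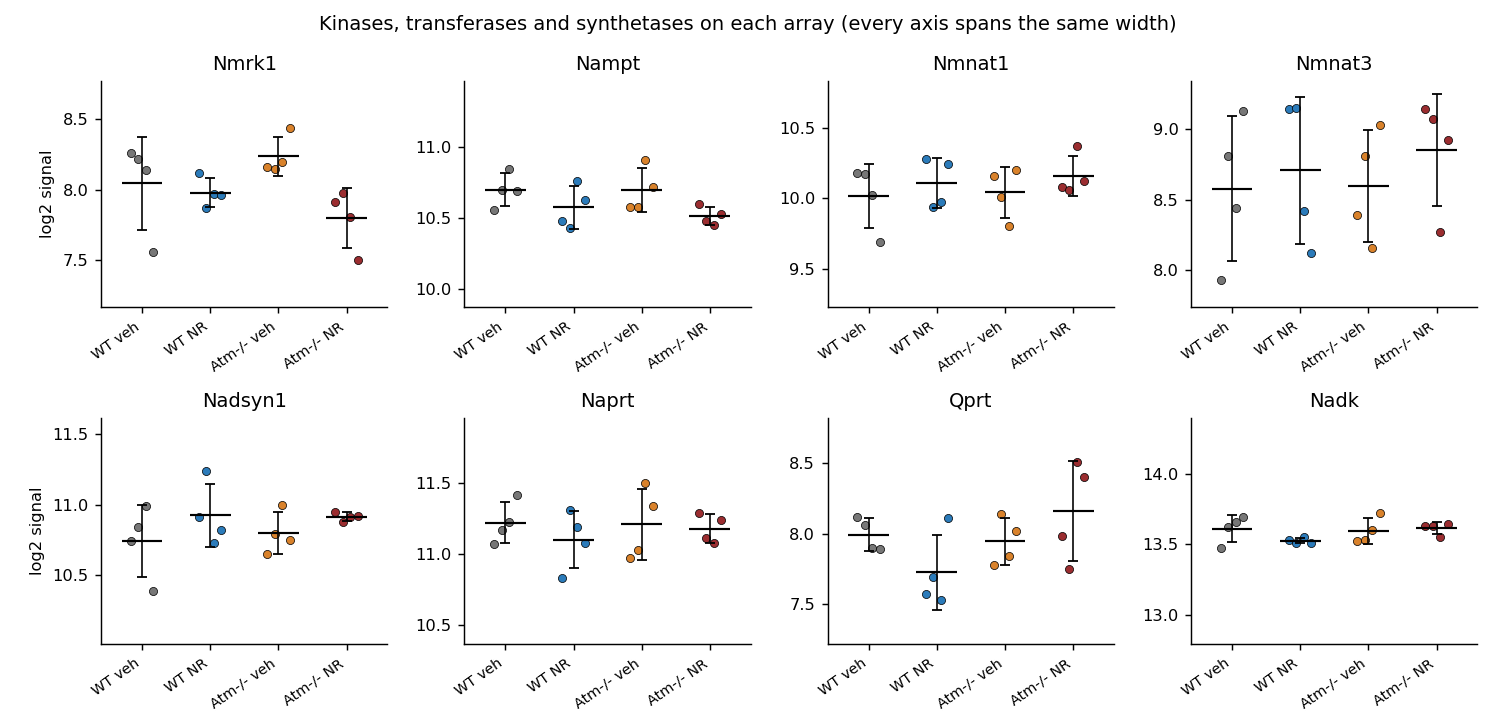
Log2 signal of *Nmrk1*, *Nampt*, *Nmnat1*, *Nmnat3*, *Nadsyn1*, *Naprt*, *Qprt* and *Nadk* on each array (brightest probe of each gene; points are arrays, lines are means and bars are the SD, n = 4). *Nmrk1* is the panel in which the Atm-/- NR arrays (7.50 to 7.98) lie below the Atm-/- veh arrays (8.15 to 8.44), and *Nmnat3* is spread widely in each group.

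*Nnmt*, the methyltransferase that clears nicotinamide, had 1 array far above the rest on its brighter probe. There, WT veh had 6.25, 6.59, 6.33 and 8.80, and the other 12 arrays ran from 5.72 to 6.62. WT veh 4 was thus more than 2 log2 units above any other array. The dimmer *Nnmt* probe had 6.04, 5.85, 4.94 and 6.49 in WT veh, and the means of the other groups lay between 5.36 and 5.74. With WT veh 4, the brighter probe differed by −0.92 between Atm-/- veh and WT veh (95% interval −1.85 to 0.02; limma, adjusted p = 0.354) and by −0.95 between WT NR and WT veh (95% interval −1.89 to −0.02; limma, adjusted p = 0.65). Without that array the differences were −0.31 (limma, adjusted p = 0.482) and −0.35 (limma, adjusted p = 0.59). In the Atm-/- mice, NR came with a difference of 0.03 on the brighter and 0.38 on the dimmer probe, neither past the test (limma, adjusted p = 0.973 and 0.337).

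Markers of tissues next to the cerebellar cortex also stood out on WT veh 4. The 4 measured of 5 listed choroid plexus genes (*Ttr*, *Folr1*, *Kcnj13* and *Aqp1*) were all highest there, on average 5.91 log2 units above their mean over the 16 arrays, while the other arrays lay between −1.57 and 0.80. Forebrain markers (4 measured of 5) were 2.51 above their mean on WT veh 4 and between −1.03 and 0.99 elsewhere, and markers of meninges and fibroblasts (6 of 6) were 0.73 above it and between −0.42 and 0.46 elsewhere. All 5 measured microglia markers were highest on WT veh 4 as well, on average by 0.71 against −0.31 to 0.31 elsewhere, and endothelial markers (4) were 0.53 above their mean against −0.21 to 0.38. The means of Purkinje cell (−0.53), granule cell (−0.40) and astrocyte and Bergmann glia markers (−0.35) were the lowest of the 16 arrays. The part of these differences in tissue in the *Nnmt* value was not tested. In bulk tissue, more cells of a type and more RNA per cell cannot be told apart. *Nnmt* is also the member that lies within 10 Mb of *Atm* on chromosome 9, where 12 of 211 measured genes were called in Atm-/- veh against WT veh compared with 1 of 16526 elsewhere, and it was not among them.

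**Figure D3:**
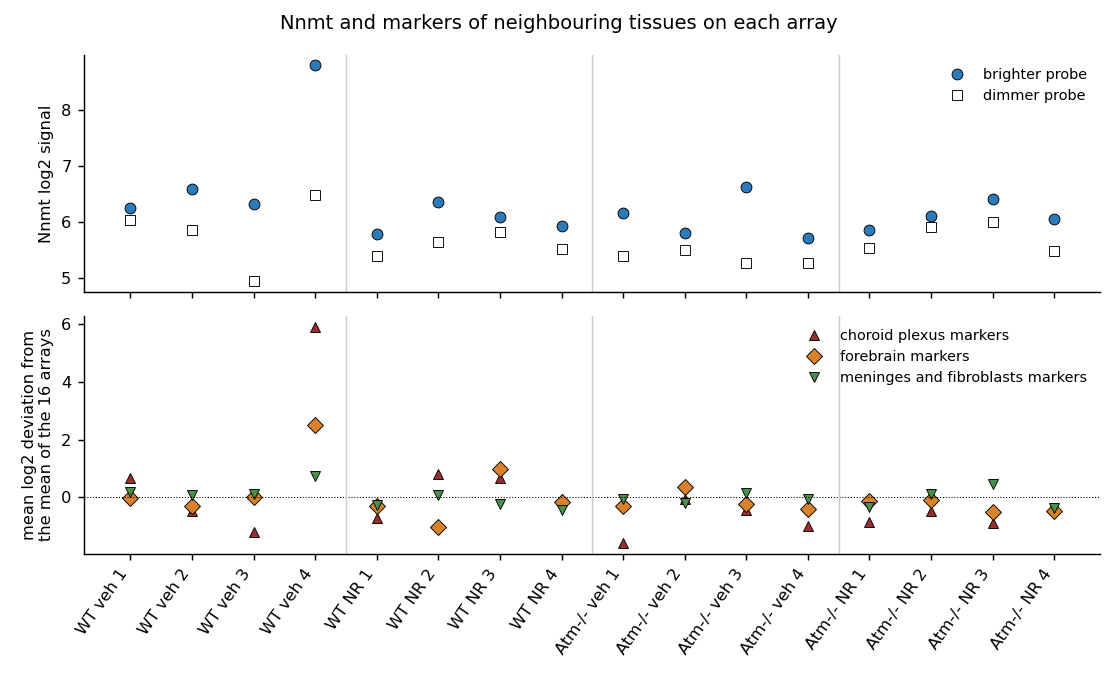
Log2 signal of both *Nnmt* probes on each of the 16 arrays (upper panel) and the mean log2 deviation of choroid plexus, forebrain and meninges and fibroblast markers from their mean over the 16 arrays (lower panel). WT veh 4 holds the highest *Nnmt* value, 8.80, and the highest value of each marker list.

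Over the 13 kept member probes, counts of calls were low, and so was the background in most comparisons. In Atm-/- veh against WT veh, 0 members were called and 0.0537% of all probes were, 1 member had an unadjusted p under 0.05 (*Nmnat2*) against 14.6% of all probes, and 1 had groups without overlap (*Nmnat2*) against 7.6%. In WT NR against WT veh, 0 members and 0% of all probes were called, 1 member (*Nnmt*) had an unadjusted p under 0.05 against 7.62% of all probes, and 0 members had groups without overlap against 4.09%. In Atm-/- NR against Atm-/- veh, 1 of 13 member probes (7.69%) was called against 9.04% of all probes, a share near the background. There 2 members (*Nmnat2* and *Nmrk1*) had an unadjusted p under 0.05 against 27.3% of all probes, and the same 2 had groups without overlap against 20.2%. In Atm-/- NR against WT NR, 0 members were called and 0.0537% of all probes were, 1 member (*Qprt*) had an unadjusted p under 0.05 against 5.21%, and 1 (*Nadk*) had groups without overlap against 4%. For the difference between the NR effects of the genotypes, 0 members and 0% of all probes were called, and 0 members had an unadjusted p under 0.05 against 5.27%.

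**Figure D4:**
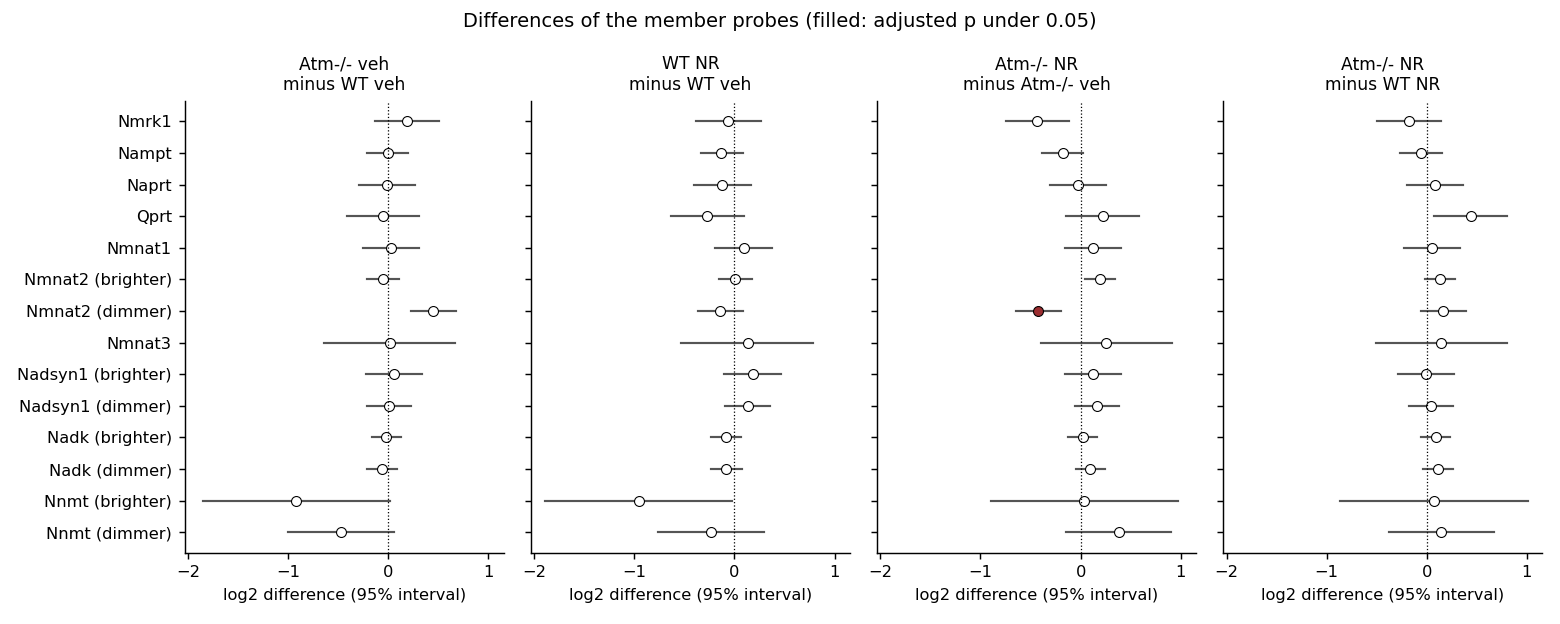
Log2 differences of the 14 member probes in the 4 comparisons between groups, with 95% intervals of the limma model (the brighter *Nmnat2* probe from a model that allows a missing array). The filled point is the difference called at an adjusted p under 0.05, the dimmer *Nmnat2* probe in Atm-/- NR against Atm-/- veh (−0.43), and the intervals of the brighter *Nnmt* probe are the widest, followed by those of *Nmnat3*.

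The sizes of the members' differences were set beside those of all probes. With each gene given by its brightest kept probe, the median size of a difference was 0.04 in Atm-/- veh against WT veh, where it was 0.16 over all probes, and 0.15 in Atm-/- NR against Atm-/- veh, where it was 0.21 over all probes. In WT NR against WT veh it was 0.13 against 0.12. The members and all probes were not matched by level here. The signed median of the members was 0.01, −0.10 and 0.03 in these comparisons, against 0.00, −0.01 and 0.00 over all probes. Within groups, the SD ran from 0.0714 for *Nadk*, which 2.42% of all probes undercut, to 0.662 for *Nnmt*, which 92.8% undercut. Among probes within 0.5 log2 units of the level of each, these shares were 8.01% and 86.1%. The median over all probes was 0.228.

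The other genes of NAD+ metabolism were read from the same model, in lists of the tryptophan (kynurenine) route, of the handling of NR and nicotinamide, and of NADP+ and mitochondrial NAD+. Of 29 genes listed, 23 were measured, and 0 of them were called in any of the 5 comparisons (limma, adjusted p), where 9.04% of all probes were called in Atm-/- NR against Atm-/- veh and at most 0.0537% in the other comparisons. At an unadjusted p under 0.05 there were 5 of the 23 in Atm-/- veh against WT veh (14.6% of all probes), 3 in WT NR against WT veh (7.62%), 6 in Atm-/- NR against Atm-/- veh (27.3%), 1 in Atm-/- NR against WT NR (5.21%) and 0 for the difference between the NR effects (5.27%). *Kmo*, the hydroxylase of the kynurenine route, had 6.69, 6.40, 6.46 and 6.28 in WT veh and ran from 6.82 to 7.24 in Atm-/- veh, higher by 0.58 without overlap (limma, adjusted p = 0.216). *Kmo* is named with *Slc29a1*, *Nudt13*, *Slc29a2*, *Slc12a8* and *Aox1* because their groups did not overlap at an unadjusted p under 0.05, with at most the 3 smallest p of a comparison taken.

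*Slc29a1*, an equilibrative nucleoside transporter, was 0.26 higher in Atm-/- veh than in WT veh (limma, adjusted p = 0.278) and 0.33 lower in Atm-/- NR than in Atm-/- veh, where the values were 11.68, 11.61, 11.73 and 11.70 against 12.11, 11.91, 11.99 and 12.04 (limma, adjusted p = 0.0609). Its relative *Slc29a2* differed by −0.28 in the latter comparison (limma, adjusted p = 0.0722). *Nudt13*, a mitochondrial NADH pyrophosphatase, differed by −0.18 in Atm-/- veh against WT veh and by 0.23 in Atm-/- NR against Atm-/- veh (limma, adjusted p = 0.309 and 0.0746). In WT mice given NR, *Slc12a8*, described as a nicotinamide mononucleotide transporter, had 13.84, 13.64, 13.62 and 13.61 against 13.22, 13.08, 13.59 and 13.31, a difference of 0.38 (limma, adjusted p = 0.502). *Aox1*, an aldehyde oxidase that acts on methylated nicotinamide, differed by −0.43 in the same comparison (limma, adjusted p = 0.508). *Nmrk2*, the other NR kinase, is named here outside the rule, after its values were seen, and had 5.66, 6.15, 4.76 and 6.11 in Atm-/- veh and 5.99, 6.06, 7.08 and 6.15 in Atm-/- NR, overlapping, with a difference of 0.65 ± 0.283 (SE; limma, adjusted p = 0.155).

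**Figure D5:**
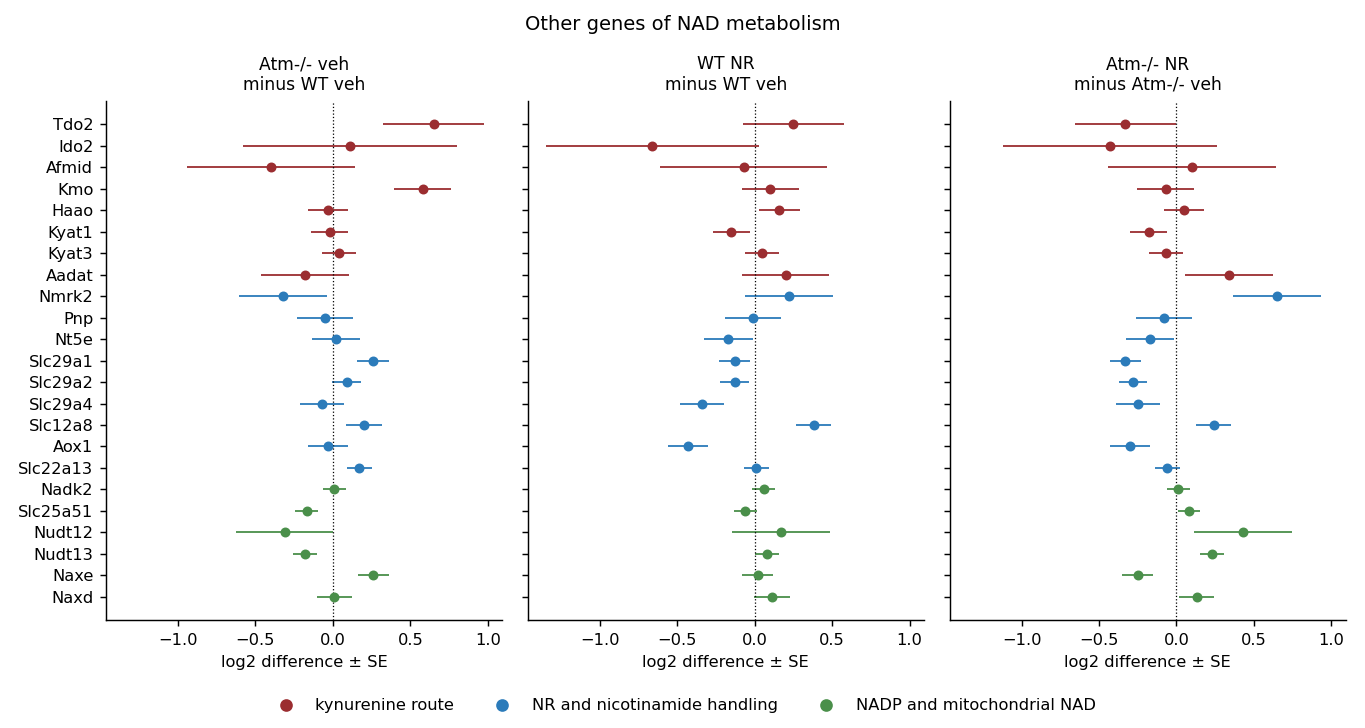
Log2 differences ± SE of the 23 measured genes of the other NAD+ lists in Atm-/- veh minus WT veh, WT NR minus WT veh and Atm-/- NR minus Atm-/- veh, colored by list. None is called at an adjusted p under 0.05. *Kmo* (0.58, left), *Slc29a1* (−0.33, right) and *Slc12a8* (0.38, middle) are among the genes whose groups did not overlap. Some genes with overlapping groups lie farther from 0, such as *Tdo2* (0.65, left), *Ido2* (−0.66, middle) and *Nmrk2* (0.65, right).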

How the data were processed

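Total RNA was labeled with Cy3 and hybridized to 16 one-color Agilent arrays, 1 per mouse. The authors deposited scanner tables from Feature Extraction 12.0.3.1 with spot intensity, and a table of z-scores, which is a score per probe. Background subtraction was done in the scanner software. Here the log2 of the processed intensity was quantile normalized over probes with at least 0.5 of their spots well above background on all 4 arrays of a group. Outlier spots (2851) were left out, spots of a probe averaged, and 788 probes with a missing array dropped. The 4 groups were fitted with limma 3.58.1 in R 4.3.3, with 12 residual degrees of freedom and Benjamini-Hochberg adjustment over 37253 probes, and a probe was called at an adjusted p under 0.05. The limma steps were tested on simulated data. Accessions were named through RefSeq for 32994 probes. A gene takes its brightest kept probe. The number of arrays limits the precision. Levels of probes of different genes were not compared, and for genes with a pair of probes the difference between them within an array was compared between groups. Alternatives were scaling to the 75th percentile, normexp background with an offset of 50, the filter, the z-scores, the methods' t-test, a replicate block and leaving out arrays. The members and lists were chosen with earlier results of these data known. All members are named, with the other NAD+ genes by the rule given beside them.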

Additional observations from a re-analysis of the deposited data

Results flagged for a closer look

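In 3 of 55 sets of 4 arrays, a member probe had a sample far from the rest by Dixon's test, where chance gives about 1 in 20. *Nnmt* (brighter probe) was 8.80 on WT veh 4, with the nearest array of its group at 6.59. *Nmrk1* was 8.44 on Atm-/- veh 4, with the nearest at 8.20, and without that array its difference between Atm-/- NR and Atm-/- veh was −0.37 (limma, adjusted p = 0.188). *Nadk* (brighter probe) was 13.55 on Atm-/- NR 3, with the nearest at 13.63.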

How the results depend on the processing

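The called difference, the dimmer *Nmnat2* probe in Atm-/- NR against Atm-/- veh, kept its direction under every alternative run. Among differences that were not called, 81 values under the alternatives had the opposite sign, such as *Nmnat3* in Atm-/- veh against WT veh (0.02, and −0.20 without WT veh 1) and *Nmnat1* there (0.03, and −0.08 without WT veh 4). For Atm-/- NR against Atm-/- veh, 1 member probe was called, and 2 were with scaling to the 75th percentile, 2 with the normexp background, 2 by the methods' t-test before adjustment, 0 without the 4 arrays with *Xist* signal, an alternative chosen after seeing the data, and 0 to 2 with an array left out. The methods' t-test before adjustment also gave 1 in Atm-/- veh against WT veh and 1 in Atm-/- NR against WT NR. Over 26 alternatives *Nmnat2* (dimmer probe) was called in 20 and *Nmrk1* in 3. Same-numbered samples were not paired by the data, and with the replicate block 1 member probe was called (*Nmnat2*, −0.43, limma, adjusted p = 0.0328).

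Over all probes, the 3366 calls in Atm-/- NR against Atm-/- veh became 438 without the *Xist* arrays, 862 without Atm-/- veh 1, 904 without Atm-/- NR 3 and up to 4405 with another array left out, and 10391 by the t-test before adjustment. In Atm-/- veh against WT veh the 20 calls became 7 with only these groups, 2 by the adjusted t-test, 4290 before adjustment and 12 to 41 with an array left out. In WT NR against WT veh the 0 calls became 6 without the *Xist* arrays and 2812 by the t-test before adjustment. In Atm-/- NR against WT NR the 20 calls became 10 without the *Xist* arrays, 10 by the adjusted t-test and 2359 before adjustment. For the difference between the NR effects, 0 became 2 without the *Xist* arrays. The causes were not tested, and the number of arrays limits all of these.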
